A study of Mus musculus with 12 samples.

Results

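The genes described here are 35 genes of fatty acid uptake and oxidation, chosen by symbol from a fixed list, and all 35 were found among the 24918 genes of a table of mouse heart transcripts. The list was drawn up with earlier results of these data known. Whole hearts of C57BL/6 mice at 2 months of age, without treatment, had been sequenced as total RNA in 12 libraries, 3 in each of 4 groups. By their titles, male and female floxed mice were homozygous for a glucocorticoid receptor gene (Nr3c1) flanked by loxP sites (GRloxP,loxP). Male and female cardioGRKO mice carried the same 2 floxed alleles together with 1 copy of αMHCCre, a Cre recombinase under the α-myosin heavy chain promoter, which is active in cardiomyocytes, so that other cells of the heart keep the receptor. The question, from the series title and design text, was what changes in the heart when cardiomyocytes lack the receptor, and whether this depends on sex. Only cardioGRKO mice carried Cre, so an effect of Cre and an effect of the deletion cannot be told apart. The groups rest on the titles, since all 12 libraries have wild-type in their genotype field.

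The heart draws most of its energy from fatty acids. Lipases on the capillary wall free them from lipoproteins, carriers bring them into the cardiomyocyte, and acyl-CoA synthetases activate them before the carnitine shuttle moves them into mitochondria, where malonyl-CoA restrains the first step. Inside the mitochondrion the β-oxidation spiral shortens the chain step by step, auxiliary enzymes prepare unsaturated chains for it, and electron transfer flavoprotein hands its electrons to ubiquinone. Many of these genes are known targets of the fatty acid-sensing receptor PPARα and of oestrogen-related receptors, and thioesterases, uncoupling proteins and Pdk4 are among the genes that respond when the fatty acid supply changes.

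In males, 32 of the 35 genes were lower in cardioGRKO than in floxed hearts and 2 were higher, with a median difference of -0.26 on the log2 scale. In the libraries labelled female the direction was the opposite: 31 were higher and 2 were lower under the cardioGRKO label, with a median of 0.14. Genes of each step were among them, from lipoprotein lipase (Lpl) and the fatty acid translocase Cd36 to all 9 listed enzymes of the β-oxidation spiral. Cpt1b was not called in males and was lower under the female labels, and Eci1 and Ucp3 were not called under the female labels. Ucp2 went the other way in both comparisons, and Pdk4 was higher in both. Of all genes tested, 14.6% were called lower and 12.8% higher in males. Under the female labels 14% were called lower and 15.2% higher.

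A value here is the authors' log2 value after DESeq2 normalization. It is not divided by transcript length, so levels are compared between libraries and not between genes. A gene is called changed where limma's moderated test over all 12 libraries gives a two-sided p under 0.05 after Benjamini-Hochberg adjustment over the 14721 genes that reached a minimum level. All 35 genes reached it. Sequencing depth cannot be read from normalized values, and precision is given as the variation between libraries. That variation was small for these genes, with a within-group SD of 0.002 to 0.07 and a median of 0.022. No label ties a library to an animal of its own, so the p-values measure how far these libraries vary, and part of that variation may be technical. An exact permutation test of 3 against 3 libraries cannot go below 0.10 and was not run.

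Nr3c1, the targeted gene, was 11.41 ± 0.015 (SD, n = 3) in male floxed and 10.85 ± 0.027 in male cardioGRKO libraries and so fell by 32.2% (limma, adjusted p = 2.45e-11). It was 10.74 ± 0.034 in the libraries labelled female floxed and 10.88 ± 0.029 in those labelled female cardioGRKO, which is 10.1% higher under the deletion label (adjusted p = 0.000384). The female labels are therefore written as labels throughout, and each direction given for them follows the label. Labelled female minus male, Nr3c1 differed by -0.668 in floxed libraries (limma, adjusted p = 1.37e-12). In cardioGRKO libraries this difference was 0.03 and was not called (adjusted p = 0.411). The means of both groups labelled female were closer to male cardioGRKO than to male floxed libraries. In 2 of the libraries labelled female floxed, numbers 1 and 2, transcripts of corneal epithelium were high, with a summed level of 7 markers that reached 34700 on the linear scale (2 to the power of the value) against at most 1230 in the other groups.

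Hadha and Hadhb are neighbours that share a promoter region, and they are shown because they moved in the same direction. All 9 listed enzymes of the spiral did so too. Hadha and Hadhb encode the α and β subunits of the mitochondrial trifunctional protein, which carries out the last 3 steps of the spiral on long chains. The genes are read in opposite directions from starts 272 bases apart on chromosome 5. The stretch below lies between both starts at chr5:30155003-30155230 (GRCm38.p6, RefSeq, plus strand, which is the strand of Hadhb), and its 228 bases belong to both promoter windows. Capitals mark its 15 CpG dinucleotides.
Hadha and Hadhb: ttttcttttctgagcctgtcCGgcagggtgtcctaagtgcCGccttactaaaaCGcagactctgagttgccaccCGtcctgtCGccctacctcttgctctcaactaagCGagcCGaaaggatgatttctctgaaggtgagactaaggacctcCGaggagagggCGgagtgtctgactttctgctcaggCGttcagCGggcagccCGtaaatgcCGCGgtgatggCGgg
Its GC content is 57%, against a median of 52.7% over all promoter windows. Hadha and Hadhb differed by -0.16 each between the male groups and by 0.31 and 0.23 between the groups labelled female. A part of the shared stretch in these changes was not tested.

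Promoter windows of 300 bases, 250 before and 50 after the start, were found in RefSeq for 28 of the 35 genes (32 windows). These were searched on both strands for 3 letter patterns of nuclear receptors. The first was the direct repeat bound by PPAR with RXR, 2 copies of AGGNCA with 1 base between them, the next the oestrogen-related receptor element TNAAGGTCA, and the last the glucocorticoid response element, GNACA and TGTNC with 3 bases between them. The first 2 patterns can overlap in the letters AGGTCA. None of the 32 windows held any of them, and of all 32851 windows 0.381%, 1.28% and 0.475% held one. These letters are thus not in these windows, and the search did not look farther from the starts.

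The 5 genes of uptake and lipoprotein lipolysis were all called lower in males and all called higher in the libraries labelled female. Of all tested genes, 4.92% were called so in both comparisons. Cd36, the translocase that carries long-chain fatty acids across the cell membrane, was read in the male floxed libraries at 15.74, 15.73 and 15.75 and in male cardioGRKO at 15.39, 15.41 and 15.38. In the libraries labelled female it was 15.28, 15.23 and 15.27 under the floxed label and 15.49, 15.52 and 15.53 under the cardioGRKO label. No 2 groups overlapped. Cd36 fell by 21.2% in males (log2 difference -0.34, SE 0.016, adjusted p = 5.51e-11) and rose by 19.2% in the libraries labelled female (0.25, SE 0.016, adjusted p = 4.88e-09).

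Lpl, the enzyme that frees fatty acids from circulating lipoproteins, had values of 17.39, 17.44 and 17.44 in male floxed and 17.01, 17.08 and 17.06 in male cardioGRKO libraries. Under the female labels it was 16.86, 16.88 and 16.81 in floxed and 17.15, 17.19 and 17.24 in cardioGRKO. The 4 groups stood apart in the same order as for Cd36, with male floxed highest and labelled female floxed lowest. The differences were -0.37 (SE 0.022, adjusted p = 1.6e-09) in males and 0.34 (SE 0.022, adjusted p = 8.8e-09) under the female labels, so that Lpl fell by 22.9% and rose by 26.9%.

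Angptl4, a secreted inhibitor of lipoprotein lipase, differed from both in where its levels lay. It was 9.27, 9.26 and 9.22 in male floxed, 9.01, 9.07 and 9.10 in male cardioGRKO, 9.75, 9.72 and 9.77 in labelled female floxed and 9.87, 9.85 and 9.80 in labelled female cardioGRKO libraries. Both groups labelled female were above both male groups. It fell by 12.3% in males (adjusted p = 0.000104) and was 6.74% higher under the female cardioGRKO label (limma, adjusted p = 0.0237). The latter call was lost without either of 2 libraries labelled female floxed and without either of 2 labelled female cardioGRKO, with adjusted p from 0.0538 to 0.0930, and when the replicate number entered as a block (adjusted p = 0.0503). Slc27a1, a fatty acid transport protein, and Fabp3, the fatty acid-binding protein of heart muscle, differed by -0.18 each in males and by 0.22 and 0.12 under the female labels.

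Activation and the carnitine shuttle gave 4 genes lower of 5 in males, against 14.6% of all tested genes. Under the female labels 4 were higher and 1 lower, against 15.2% and 14%. Acsl1, the acyl-CoA synthetase that activates long-chain fatty acids in heart, was 14.51, 14.47 and 14.52 in male floxed and 14.19, 14.17 and 14.15 in male cardioGRKO libraries. It was 13.96, 13.94 and 14.01 in those labelled female floxed and 14.24, 14.24 and 14.26 in those labelled female cardioGRKO. Again no 2 groups overlapped, and the changes were -0.33 and 0.28 (adjusted p = 1.91e-09 and 2.84e-08). Cpt2 and Crat, the inner-membrane carnitine palmitoyltransferase and carnitine acetyltransferase, differed by -0.29 and -0.31 in males and by 0.14 and 0.24 under the female labels. Cpt1a, the liver isoform of the outer-membrane enzyme, differed by -0.11 and 0.09, and its male difference was -0.001 when libraries were scaled to cardiomyocyte markers (adjusted p = 0.98).

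Cpt1b, the muscle isoform of the outer-membrane carnitine palmitoyltransferase, was the exception. Its values were 6.74, 6.69 and 6.76 in male floxed, 6.69, 6.72 and 6.70 in male cardioGRKO, 6.90, 6.79 and 6.88 in labelled female floxed and 6.77, 6.76 and 6.77 in labelled female cardioGRKO libraries. The male groups overlapped and differed by -0.03 (95% interval -0.09 to 0.03, adjusted p = 0.482), a direction that turned to 0.08 when libraries were scaled to cardiomyocyte markers (adjusted p = 0.0151). Under the female labels the difference was -0.09 (adjusted p = 0.0181), a call lost without library 1 or 3 labelled female floxed or library 2 labelled female cardioGRKO (adjusted p from 0.0516 to 0.0910). Cpt1b overlaps its neighbour Chkb, and the table also holds a joint row ChkbCpt1b that is listed at 0 in all 12 libraries. How reads shared by these rows were assigned is not given in the sources used here, and the values of Cpt1b are uncertain for that reason.

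The pair of genes that sets malonyl-CoA moved in 1 direction. Acacb, the acetyl-CoA carboxylase of the mitochondrial surface, makes malonyl-CoA, and Mlycd, malonyl-CoA decarboxylase, removes it. Acacb fell by 12.1% and Mlycd by 18.5% in males, and they were 15.8% and 18.3% higher under the female cardioGRKO label.

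Every one of the 9 enzymes of the β-oxidation spiral was called lower in males and higher under the female labels, against 4.92% of all tested genes. The male differences ran from -0.34 to -0.16 and those under the female labels from 0.08 to 0.31. Acadm, the medium-chain acyl-CoA dehydrogenase, was 15.02, 15.01 and 15 in male floxed and 14.80, 14.81 and 14.80 in male cardioGRKO libraries. In the libraries labelled female it was 14.61, 14.59 and 14.63 in floxed and 14.77, 14.79 and 14.79 in cardioGRKO. All 3 libraries of a genotype lay on 1 side of the other within each sex label, while the 2 cardioGRKO groups were close to each other. Acadm fell by 13.3% in males (SE 0.014 log2, adjusted p = 5.73e-09) and rose by 12.6% under the female labels (adjusted p = 9.83e-08).

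Hadha was 15.36, 15.35 and 15.33 in male floxed, 15.19, 15.18 and 15.20 in male cardioGRKO, 14.92, 14.89 and 14.96 in labelled female floxed and 15.23, 15.24 and 15.23 in labelled female cardioGRKO libraries. It fell by 10.2% in males (adjusted p = 1.89e-06) and rose by 23.9% under the female labels (adjusted p = 1e-09). Hadha thus had the smallest fall of the 9 in males and the largest rise of the 9 under the female labels, and its partner Hadhb was next in both. The male order is not resolved, since Hadha (-0.156, SE 0.017), Hadhb (-0.16, SE 0.024) and Acads (-0.163, SE 0.019) differed by less than their SE. Acaa2, the medium-chain thiolase, fell by 21.1% in males, the largest fall of the 9, and was 8.65% higher under the female labels. Among the acyl-CoA dehydrogenases, Acadvl, Acadl, Acadm and Acads, which take chains from very long to short, fell by 19.3%, 14.7%, 13.3% and 10.7% in males and rose by 10.3%, 9.43%, 12.6% and 11.1% under the female labels. Echs1 and Hadh, the hydratase and the dehydrogenase for shorter chains, fell by 13.9% and 16.8% and were 5.38% and 6.39% higher. Acadvl and Echs1 were no longer called under the female labels after quantile normalization (adjusted p = 0.0508 and 0.0891), nor Hadhb in males when libraries were scaled to cardiomyocyte markers (adjusted p = 0.141).

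Of the 4 auxiliary enzymes for unsaturated fatty acids, 4 were called lower in males, against 14.6% of all tested genes. Under the female labels 3 were called higher, against 15.2%. Decr1, the dienoyl-CoA reductase of mitochondria, was 13.67, 13.68 and 13.68 in male floxed, 13.29, 13.29 and 13.28 in male cardioGRKO, 13.21, 13.15 and 13.19 in labelled female floxed and 13.30, 13.32 and 13.31 in labelled female cardioGRKO libraries. Only male floxed libraries stood well above the rest. Decr1 fell by 23.5% in males (SE 0.017 log2, adjusted p = 4.19e-11) and was 8.95% higher under the female labels (adjusted p = 4.76e-05). Ech1, a dienoyl-CoA isomerase, differed by -0.32 and 0.22, and Eci2, an enoyl-CoA isomerase, by -0.26 and 0.09. Eci1, its mitochondrial relative, fell by 14.4% in males and differed by 0.02 (95% interval -0.01 to 0.06, adjusted p = 0.358) under the female labels. The call of Eci2 under the female labels was lost when the replicate number entered as a block (adjusted p = 0.0517), and without library 2 labelled female floxed or library 2 or 3 labelled female cardioGRKO. It was also lost after quantile normalization (limma, adjusted p = 0.0866) and when no filter was applied (limma, adjusted p = 0.0933).

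The 3 genes that pass electrons from the dehydrogenases to ubiquinone, Etfa and Etfb for the 2 subunits of electron transfer flavoprotein and Etfdh for its ubiquinone oxidoreductase, fell by 20.7%, 17.3% and 19.9% in males. They were 7.75%, 5.28% and 14.5% higher under the female labels. The female figures for Etfa and Etfb depended on the scaling: after quantile normalization they were 0.02 and 0.03 on the log2 scale and were not called (adjusted p = 0.336 and 0.499).

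Among the thioesterases, which split acyl-CoA back into fatty acid and free CoA, Acot1 had the largest fall of all 35 genes in males. Acot1, the cytosolic enzyme, was 8.45, 8.46 and 8.5 in male floxed, 7.85, 7.89 and 7.89 in male cardioGRKO, 7.81, 7.85 and 7.85 in labelled female floxed and 8.19, 8.18 and 8.17 in labelled female cardioGRKO libraries. The male cardioGRKO libraries lay beside those labelled female floxed, with the other 2 groups above them. It fell by 33.9% in males (log2 difference -0.60, SE 0.026, adjusted p = 2.72e-11) and rose by 26.8% under the female labels (adjusted p = 4.98e-08). Acot2, its mitochondrial near copy, differed by -0.32 and 0.27, and Acot13, a small mitochondrial thioesterase, by -0.11 and 0.11, where the male value turned to 0.002 when libraries were scaled to cardiomyocyte markers. Acot1 and Acot2 share sequence: of the 2223 windows of 50 bases in the Acot1 transcript (GENCODE M21), 23.7% also occur in Acot2, so their separate values are uncertain where reads could be split between them.

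The last 4 genes answer to fatty acid supply rather than burn it, and here the directions were mixed. Ucp2, an uncoupling protein of the inner mitochondrial membrane, was 11.71, 11.73 and 11.75 in male floxed, 12.38, 12.34 and 12.39 in male cardioGRKO, 12.85, 12.94 and 12.86 in labelled female floxed and 12.59, 12.57 and 12.56 in labelled female cardioGRKO libraries. The 4 groups stood apart, with male floxed lowest and labelled female floxed highest, the reverse of Cd36 and Lpl. Ucp2 rose by 55.8% in males (log2 difference 0.64, SE 0.024, adjusted p = 3.68e-12) and fell by 19.2% under the female labels (adjusted p = 6.7e-08).

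Ucp3, the uncoupling protein of muscle, was 11.33, 11.25 and 11.34 in male floxed, 11.10, 11.10 and 11.07 in male cardioGRKO, 11.91, 11.88 and 11.94 in labelled female floxed and 11.95, 11.98 and 11.99 in labelled female cardioGRKO libraries. Its main contrast was between the sex labels, with every library labelled female above every male one. Ucp3 fell by 13.7% in males (adjusted p = 5.22e-06). Under the female labels the difference was 0.06 and was not called (adjusted p = 0.0832), although the 3 cardioGRKO libraries were above the 3 floxed ones.

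Pdk4, the pyruvate dehydrogenase kinase that holds back glucose oxidation, was 13.30, 13.23 and 13.30 in male floxed, 13.37, 13.36 and 13.37 in male cardioGRKO, 14.04, 13.99 and 14.06 in labelled female floxed and 14.50, 14.54 and 14.54 in labelled female cardioGRKO libraries. It was higher in cardioGRKO under both sex labels, by 6.45% in males (adjusted p = 0.00445) and by 41.1% in the libraries labelled female (log2 difference 0.50, SE 0.022, adjusted p = 5.64e-11). Plin5, a coat protein of lipid droplets in oxidative tissue, followed the main course instead, and fell by 19.9% in males and rose by 16.8% under the female labels.

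**Figure D1:**
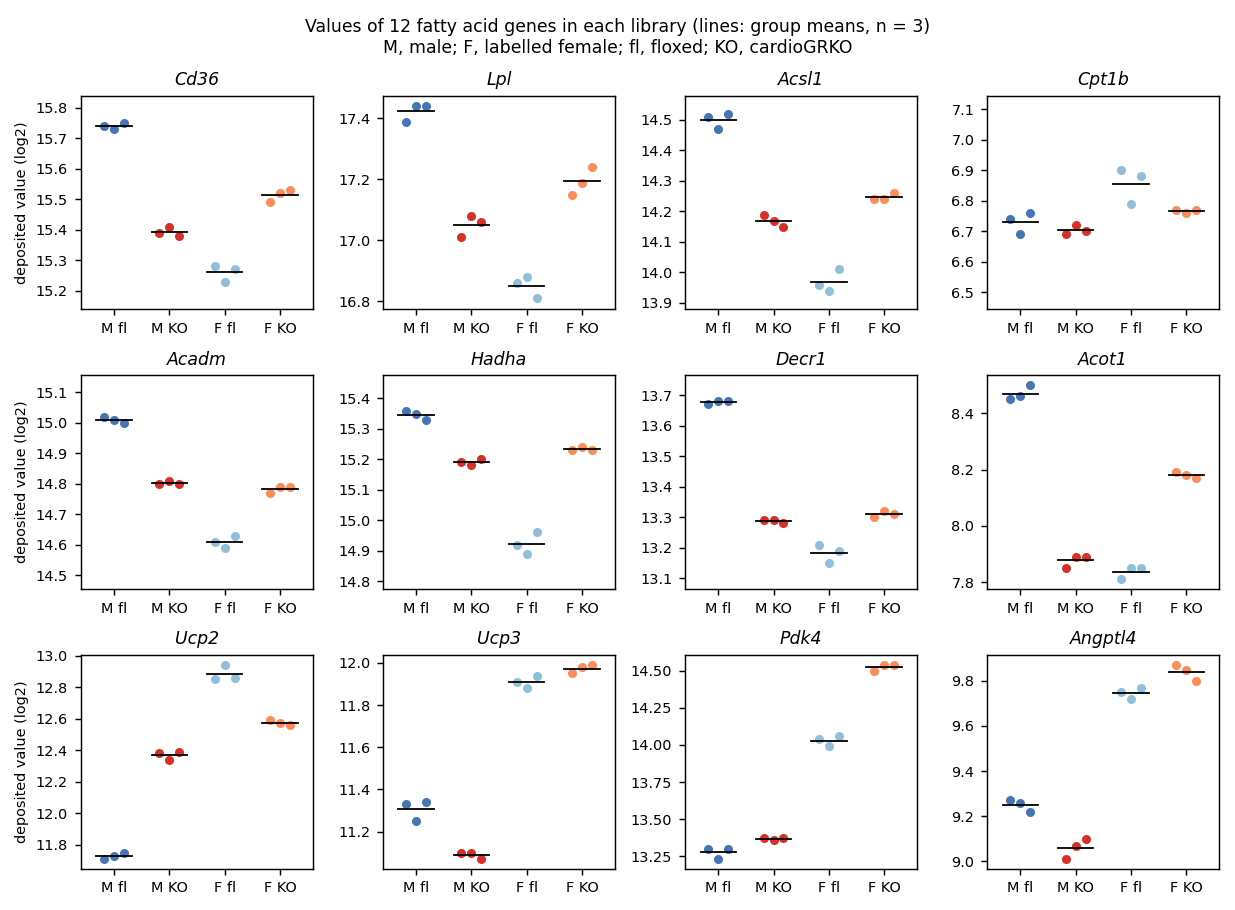
Deposited log2 values (vertical axes, a separate range for each gene) of 12 of the genes in each of the 12 libraries (points), lines marking group means (n = 3), in the order male floxed, male cardioGRKO, labelled female floxed and labelled female cardioGRKO. Cd36, Lpl, Acsl1, Hadha and Acot1 are highest in male floxed and lowest in labelled female floxed libraries, Ucp2 runs the other way, and Ucp3, Pdk4 and Angptl4 separate the sex labels.

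Read against all genes, these counts are high. The 35 genes were chosen with earlier results of these data known, so the comparison is a description and not a test. The genes tested were also not matched to the 35 in level. In males 14.6% of the 14721 tested genes were called lower and 12.8% higher, beside 32 and 2 of the 35, and the median over all tested genes was -0.002. Under the female labels 14% were called lower and 15.2% higher, beside 2 and 31 of the 35, with a median of 0 over all tested genes. Groups that did not overlap were as common: 32 of the 35 genes had all 3 male cardioGRKO libraries below all 3 floxed ones, against 22% of all tested genes, and 32 had all 3 libraries labelled female cardioGRKO above the floxed ones, against 21.6%. The changes were modest in size. With a minimum fold of 1.2 built into the test, 6 genes were called lower in males (Cd36, Lpl, Acaa2, Decr1, Etfa and Acot1) and 1 higher (Ucp2), and under the female labels 1 was called higher (Pdk4) and 0 lower. For comparison, all tested genes but the most extreme twentieth at each end lay between -0.15 and 0.15 in males and between -0.15 and 0.14 under the female labels.

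**Figure D2:**
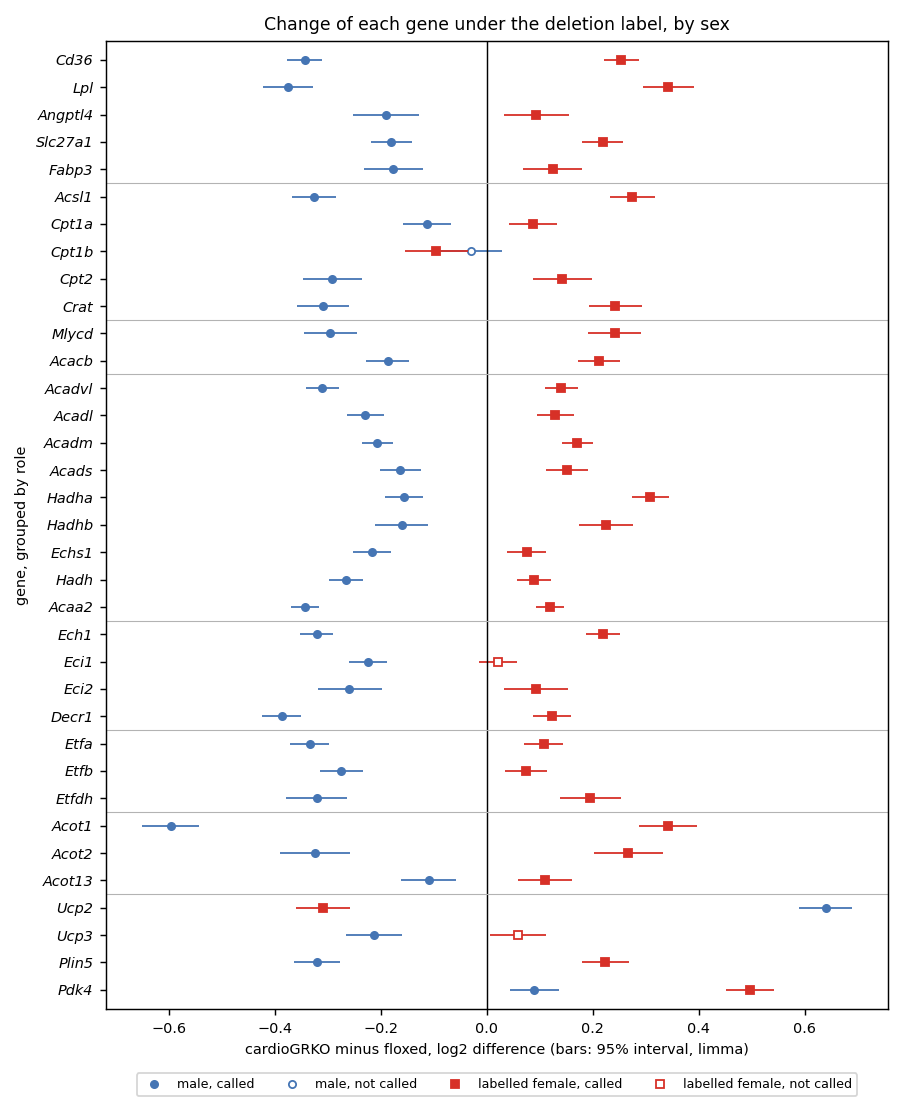
Log2 difference of each of the 35 genes between cardioGRKO and floxed libraries (horizontal axis, bars show limma's 95% interval) in males (circles) and under the female labels (squares), with genes grouped by role on the vertical axis and filled symbols for called changes. Most circles lie left of 0 and most squares right of it, Ucp2 is reversed, and Pdk4 is right of 0 in both.

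The male and the female change were compared directly as a difference of differences. It was called for 34 of the 35 genes. The male change was the lower of the 2 in 33, against 17% of all tested genes, and the higher in 1, Ucp2, against 14.3%. The median was -0.40. The largest were those of Ucp2 (0.95, SE 0.034, adjusted p = 1.96e-12), Acot1 (-0.94, SE 0.037, adjusted p = 6.95e-12), Lpl (-0.72, SE 0.032, adjusted p = 3.09e-11), Acsl1 (-0.60, adjusted p = 6.2e-11) and Cd36 (-0.60, adjusted p = 3.74e-12). For Pdk4 the difference of -0.41 stands for a larger rise under the female labels, and for Cpt1b it was 0.06 (95% interval -0.02 to 0.15, adjusted p = 0.242).

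These counts and their ranking rest on the direction of the female labels, against which Nr3c1 goes. Both groups labelled female (Nr3c1 means 10.74 and 10.88) lay below male floxed libraries (11.41), and turning the sign leaves this as it is. The cause of these low levels was not tested. When the female change was given the opposite sign, a comparison added after seeing the data in which no label was changed, 18 of the 35 genes were called with the lower change in males, against 12.4% of all tested genes, 3 with the higher change, against 12.2%, and 14 were not called. The median was then -0.10. Pdk4 had the largest value (0.59, adjusted p = 6.38e-10), followed by Ucp2 (0.33, adjusted p = 1.87e-06), Decr1 (-0.26, adjusted p = 6.92e-07) and Acot1 (-0.25, adjusted p = 7.57e-05). Hadha was the third with a higher change in males (0.15, adjusted p = 0.000156). Cd36 differed by -0.09 (adjusted p = 0.00672), and Lpl and Acsl1, by -0.03 and -0.05, were not called (adjusted p = 0.516 and 0.205).

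Taken gene by gene, 30 of the 35 were called lower in males and higher under the female labels, against 4.92% of all tested genes. The one with the opposite course was Ucp2, in a class that held 3.65% of all tested genes. Pdk4 was called higher in both. With the female sign turned, the same 30 genes would be lower in both comparisons, Ucp2 higher in both, and Pdk4 the gene of opposite course. The genes that changed most in males were not clearly those that changed most under the female labels. Across the 35 genes, which share their 12 libraries, Pearson's r between the 2 changes was -0.54 and Spearman's rho -0.34, and without Ucp2 they were -0.14 and -0.28. Over all tested genes they were -0.20 and -0.15.

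**Figure D3:**
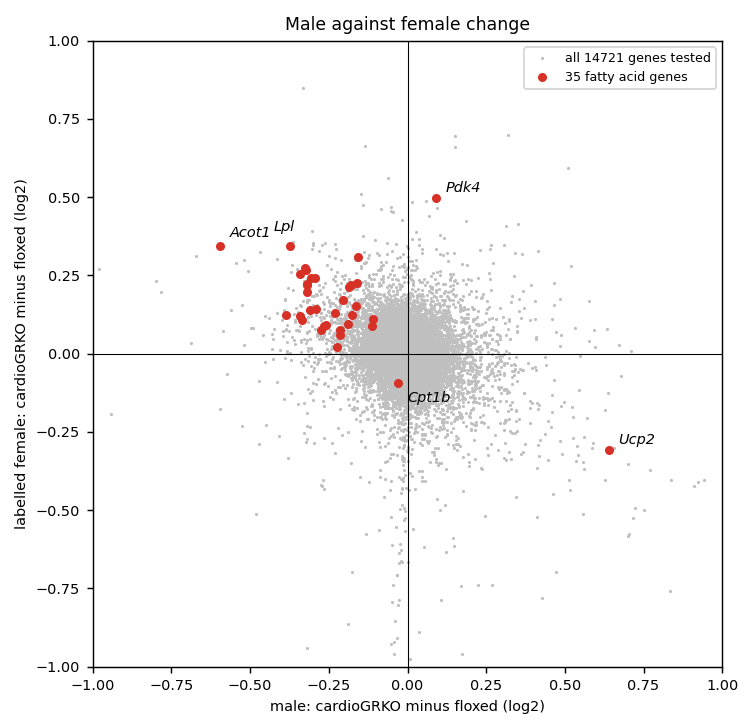
Log2 difference between cardioGRKO and floxed libraries in males (horizontal axis) against that in the libraries labelled female (vertical axis) for all 14721 tested genes (grey, 50 lie outside the axes) and the 35 fatty acid genes (red). The red points sit mainly to the upper left, with Ucp2 in the lower right and Pdk4 in the upper right.

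The 4 groups kept a common order in most genes. Male floxed libraries had the highest mean in 27 of the 35 genes and those labelled female floxed the lowest in 25. In 20 genes the whole order was male floxed, labelled female cardioGRKO, male cardioGRKO and labelled female floxed, from high to low. In 5 more, the spiral enzymes Acadm, Acads, Echs1, Hadh and Acaa2, the means of the 2 cardioGRKO groups changed places, but only Echs1 and Hadh were called between these groups, and for Acaa2 they overlapped. Neighbours in the order often overlapped at its lower end, as for Fabp3, Cpt2, Mlycd and Acot2, where male cardioGRKO and labelled female floxed libraries overlapped. In Angptl4, Cpt1a, Ucp3, Pdk4 and Ucp2 the libraries split by sex label, with both groups labelled female above both male groups. The means of Cpt1b and Slc27a1 had this order too, but groups overlapped. For Slc27a1 these were the floxed groups. For Cpt1b they were labelled female cardioGRKO and male floxed, and its cardioGRKO groups were not called different (0.06, limma, adjusted p = 0.121).

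Summed on the linear scale, the 35 genes reached 711000 to 712000 in male floxed, 583000 to 587000 in male cardioGRKO, 549000 to 551000 in labelled female floxed and 635000 to 645000 in labelled female cardioGRKO libraries. The 4 groups did not overlap, and male cardioGRKO libraries had 82% to 82.5% of the male floxed mean. The sum is weighted towards the most abundant transcripts and is a description of these libraries.

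Within the floxed genotype, 28 of the 35 genes were lower in the libraries labelled female than in males, against 22.7% of all tested genes, and 6 were higher, against 21.5%. The median difference was -0.33. Acot1 (-0.64), Lpl (-0.57), Acsl1 (-0.53), Decr1 (-0.49) and Cd36 (-0.48) were among the lower ones. Those higher under the female label were Ucp2 (1.15), Pdk4 (0.75), Ucp3 (0.61), Angptl4 (0.50), Cpt1b (0.13) and Cpt1a (0.09), and Slc27a1 was not called (0.01, 95% interval -0.03 to 0.05).

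Within cardioGRKO the picture was flatter. Here 24 genes were higher under the female label, against 11.9% of all tested genes, and 2, Echs1 and Hadh, were lower, against 12.4%, with 9 not called and a median of 0.11. The largest differences were those of Pdk4 (1.16, adjusted p = 3.08e-16), Ucp3 (0.88, adjusted p = 1.29e-13) and Angptl4 (0.78, adjusted p = 6.61e-12), while the 9 spiral enzymes lay between -0.09 and 0.13. Ucp3, Pdk4 and Angptl4 were thus higher in the libraries labelled female than in males in both genotypes. Some calls within cardioGRKO depended on the processing. Acadl (0.05, limma, adjusted p = 0.0404) lost its call without a filter, after median centring and without an intensity trend. Crat lost it without a filter and after quantile normalization, and Fabp3 and Acsl1 in some settings, while Hadha and Etfdh gained one in some. Scaling to cardiomyocyte markers left 19 higher and 4 lower. The comparisons within a sex label and those within a genotype share the same 12 libraries.

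**Figure D4:**
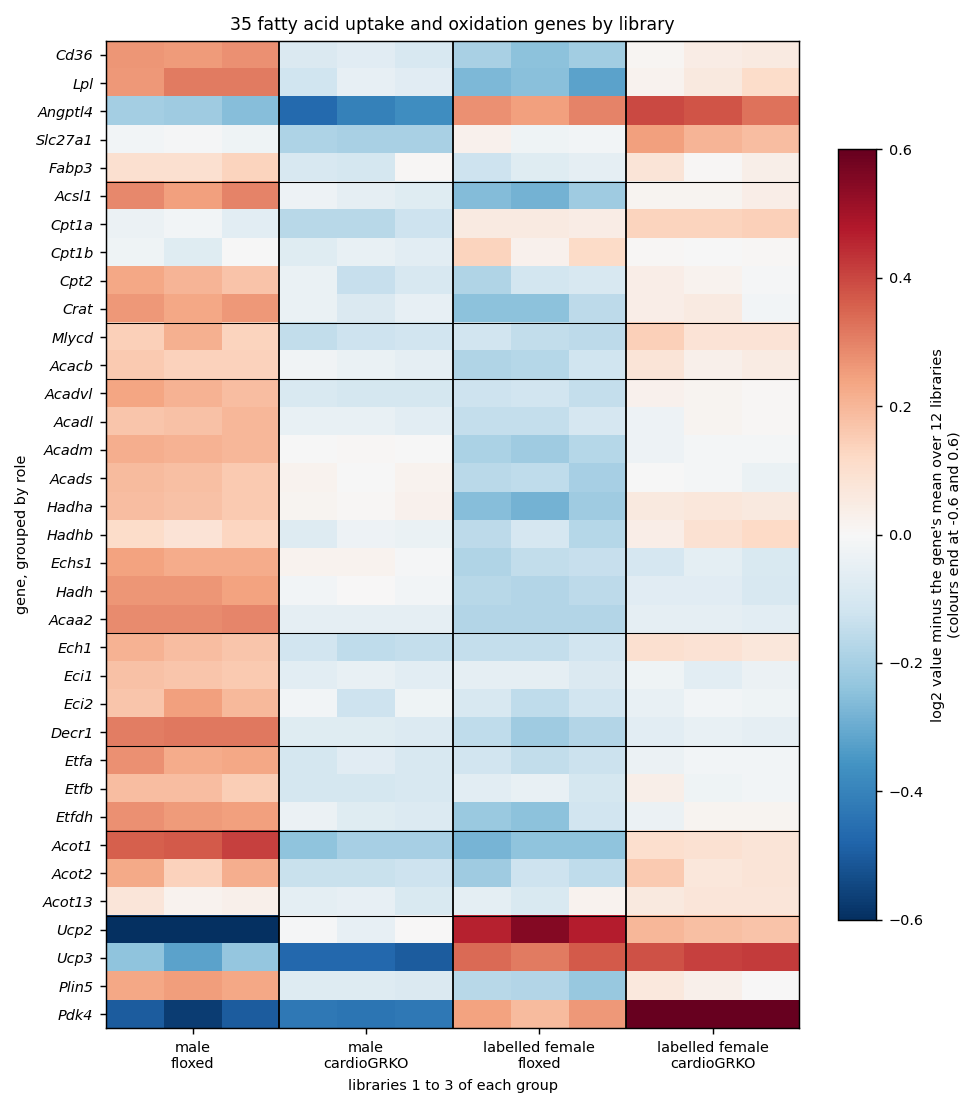
Log2 value minus the gene's mean over the 12 libraries (colour, ending at -0.6 and 0.6) for the 35 genes, grouped by role (vertical axis), in the 3 libraries of each group (horizontal axis). The male floxed block is red and the labelled female floxed block blue for most genes, while Ucp3, Pdk4 and Angptl4 are low in males and high in the libraries labelled female, and Ucp2 is low in male floxed, near its mean in male cardioGRKO and high in the libraries labelled female.

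Other genes of fatty acid handling were taken from a list of further transporters, synthetases, peroxisomal enzymes and lipid droplet genes. Of its 63 tested genes, 27 were lower and 4 higher in males, where 14.6% and 12.8% of all tested genes were, with 32 not called and a median of -0.07. Under the female labels 26 were higher and 3 lower, where 15.2% and 14% of all tested genes were, with 34 not called and a median of 0.05. The smallest p-values in males were those of Acss1, the mitochondrial acetyl-CoA synthetase (-0.39, adjusted p = 6.29e-11), Fabp4, a fatty acid-binding protein of adipocytes and capillaries (-0.34, adjusted p = 1.44e-09), and Plin3, a lipid droplet protein (-0.31, adjusted p = 2.12e-08). They were 0.08, 0.15 and 0.13 higher under the female labels. There the leading genes were Acaca, the cytosolic acetyl-CoA carboxylase of fatty acid synthesis (0.47, adjusted p = 2.35e-09), Mgll, the monoacylglycerol lipase (0.26, adjusted p = 1.96e-08), and Acad11, an acyl-CoA dehydrogenase (0.21, adjusted p = 1.7e-06).

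Among 25 tested regulators of the pathway, 10 were lower and 3 higher in males, where 14.6% and 12.8% of all tested genes were. Under the female labels 10 were higher and 6 lower, where 15.2% and 14% of all tested genes were. Of the 9 PPAR, RXR and oestrogen-related receptors on this list, most were named after their values were seen. Of these 9, 6 were called lower in males and higher under the female labels, against 4.92% of all tested genes. They were Ppara, Pparg, Rxra, Rxrg, Esrra and Esrrb. The male differences were -0.09 for Ppara, -0.13 for Pparg, -0.11 for Rxra, -0.25 for Rxrg, -0.07 for Esrra and -0.23 for Esrrb. Those under the female labels were 0.09, 0.12, 0.17, 0.07, 0.16 and 0.25 in the same order. Ppard (-0.003 and -0.02) and Esrrg (-0.07 and -0.08) were called in neither comparison, and Rxrb differed by 0.03 in males, not called, and was 0.10 higher under the female labels. Ppargc1a, the coactivator PGC-1α, fell in both, by 0.08 and 0.19 on the log2 scale. Klf15, a Krüppel-like factor that is a known glucocorticoid receptor target, differed by -0.07 in males (adjusted p = 0.0981) and fell by 0.35 under the female labels (adjusted p = 3.7e-07). Prkag2, a regulatory subunit of the energy sensor AMPK, rose by 0.41 in males and fell by 0.18 under the female labels, the direction of Ucp2.

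Markers of cell types and chambers moved between the same groups. Their counts stand beside 14.6% of all tested genes called lower and 12.8% higher in males, and 14% and 15.2% under the female labels. In whole hearts, fewer cells of a type and less RNA per cell cannot be told apart. The 15 cardiomyocyte markers were all detected, and 11 were lower and 2 higher in males, with a summed level of 3190000 to 3260000 in male floxed and 2950000 to 2980000 in male cardioGRKO. Under the female labels 6 were higher and 2 lower, with sums of 2940000 to 3050000 and 3010000 to 3050000, which overlapped. The medians of these markers were -0.15 in males and 0.02 under the female labels, and those of the fatty acid genes -0.26 and 0.14. Their part in the results was not tested. When each library was scaled to an equal mean of these markers, a choice made after seeing the data, 29 of the 35 genes were called lower and 3 higher in males, and 31 higher and 2 lower under the female labels. Over all tested genes this scaling called 571 lower and 10751 higher in males, and 1888 lower and 1853 higher under the female labels. It shifted the median of all tested genes by 0.11 in males, and it moves every gene of a library alike.

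Atrial markers moved the opposite way, and by far more. Of 10, 8 were higher and 1 lower in males (median 1.56), where 12.8% and 14.6% of all tested genes were. All 10 were lower under the female labels (median -1.0), against 14% of all tested genes. Their summed level was 32300 to 32800 in male floxed, 142000 to 143000 in male cardioGRKO, 112000 to 115000 in labelled female floxed and 54100 to 55100 in labelled female cardioGRKO libraries. Male floxed and labelled female cardioGRKO libraries had the higher sums of the fatty acid genes and the lower atrial sums. The order was not inverse throughout. The fatty acid sum was lowest in labelled female floxed libraries, while the atrial sum was highest in male cardioGRKO libraries. The part of atrial markers in the results was not tested.

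Endothelial cells also take up fatty acids and hold Lpl and Cd36. The counts that follow stand beside 14.6% of all tested genes called lower and 12.8% higher in males. Under the female labels these shares were 14% and 15.2%. Of 12 endothelial markers, 9 were lower and 1 higher in males and 6 higher and 3 lower under the female labels, with sums of 68700 to 69100, 63200 to 64100, 62500 to 64200 and 65400 to 67000 in the order of groups used above. Of 9 tested white adipocyte markers, 2 were higher and 2 lower in males and 7 higher under the female labels, and of 8 brown adipocyte markers 4 were lower in males and 5 higher under the female labels. Ucp1, which defines brown fat, differed by -0.48 and 1.67. In the same order of groups, the white adipocyte markers summed to 1350 to 1380, 1280 to 1340, 952 to 1200 and 1720 to 1810, and the brown ones to 17000 to 17600, 15600 to 16100, 15700 to 17200 and 17500 to 17600. The brown sum is weighted towards Cox8b, with group means of 13.93, 13.80, 13.88 and 13.93. Those of Ucp1 were 8.06, 7.58, 7.09 and 8.76, so the sum shows little of its course. Fibroblast markers (6 of 8 higher in males, 5 lower and 1 higher under the female labels), macrophage markers (0 of 6 called in males, 3 higher and 1 lower under the female labels), skeletal muscle markers (6 of 6 tested higher in males, 5 higher and 1 lower under the female labels) and red cell markers (1 of 2 higher in males, 2 higher under the female labels, with Hbb-b1 and Hba-a1 listed at 0) took other courses. Myh1, Myh2 and Myh4, also on the skeletal muscle list, were below the minimum level and not tested. Their means in male floxed libraries were 0.10, 1.19 and 0.07. The part of any of these cell types in the results was not tested.

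The corneal markers were called in none of 7 cases in males and lower in 7 under the female labels, against 14% of all tested genes. There, libraries 1 and 2 labelled female floxed were high. Without these 2 libraries, the single one left in its group being taken to vary like the others, the female comparison kept its direction in every fatty acid gene. Calls were then lost for Angptl4 (0.07), Cpt1a (0.10), Echs1 (0.06), Eci2 (0.09) and Acot13 (0.05). The number of genes called over the whole table fell from 4309 to 2734. The male comparison does not use these libraries other than for the shared estimate of the spread.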

How the data were processed

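The members and the other gene lists were chosen with earlier results of these data known. Total RNA of whole hearts was sequenced in 12 libraries (Illumina TruSeq, NextSeq500, per the labels' protocols). Per the submitters' processing notes, the authors used Trim Galore, TopHat2, HTSeq, DESeq2 and build mm9, with no versions, and deposited log2 values for 24918 genes. The lowest value is -2.20, and 4895 genes have only zeros. Counts and depth could not be recovered, and the exact transformation is not given in the sources used here.

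Genes with at least log2 of 10 in at least 3 libraries (14721) entered 1 limma fit (limma 3.58.1, R 4.3.3), with 1 mean per group over 12 libraries, 8 residual degrees of freedom and an intensity trend. Members were taken by symbol. Cd36, Lpl, Acsl1, Cpt1b, Acadm, Hadha, Decr1, Acot1, Ucp2, Ucp3, Pdk4 and Angptl4 are shown by library, with the 5 largest called members of each genotype contrast and of their difference, and from each other list of genes those called with the smallest p (3 per contrast). Ppara, Ppard, Pparg, Rxrb, Esrra, Esrrb and Esrrg were named after their values were seen. Groups rest on the titles. The scripts were tested on simulated data. Alternatives changed 1 choice at a time and covered filters, scaling, moderation, library weights, a minimum fold, the replicate number as a block, fits of 6 libraries, libraries left out and, added after seeing the data, scaling to cardiomyocyte markers and the female change with its sign turned. Same-numbered libraries correlated in their deviations from the group means by -0.11 to 0.15, so the numbers were not taken to pair libraries. Motifs were searched with Python 3.11.15 in RefSeq promoter windows (GRCm38.p6).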

Additional observations from a re-analysis of the deposited data

Results flagged for a closer look

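The change between floxed and cardioGRKO libraries differed between males and the libraries labelled female in 34 of the 35 genes by limma's test of the difference itself. Male minus female, on the log2 scale, it was -0.597 for Cd36, -0.718 for Lpl, -0.283 for Angptl4, -0.399 for Slc27a1 and -0.301 for Fabp3 among the uptake genes. In activation and the carnitine shuttle it was -0.602 for Acsl1, -0.199 for Cpt1a, -0.434 for Cpt2 and -0.551 for Crat, and for malonyl-CoA -0.537 for Mlycd and -0.398 for Acacb. The spiral enzymes gave -0.451 for Acadvl, -0.359 for Acadl, -0.378 for Acadm, -0.315 for Acads, -0.465 for Hadha, -0.385 for Hadhb, -0.292 for Echs1, -0.355 for Hadh and -0.462 for Acaa2. The auxiliary enzymes gave -0.540 for Ech1, -0.246 for Eci1, -0.351 for Eci2 and -0.510 for Decr1. Electron transfer gave -0.442 for Etfa, -0.348 for Etfb and -0.517 for Etfdh, and the thioesterases -0.939 for Acot1, -0.591 for Acot2 and -0.219 for Acot13. It was 0.948 for Ucp2, -0.273 for Ucp3, -0.544 for Plin5 and -0.407 for Pdk4. Cpt1b was the gene not called. Nr3c1 goes against the female labels, being 10.1% higher under the female cardioGRKO label, and these values hold for the direction as labelled. With the sign of the female change turned, 21 of the 35 genes were called, Pdk4 became 0.587, Ucp2 0.331, Decr1 -0.263, Acot1 -0.254, Hadha 0.153 and Cd36 -0.090, and Lpl (-0.031) and Acsl1 (-0.051) were not called.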

How the results depend on the processing

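Of all results for single genes under the alternatives, 4000 kept direction and call, 171 lost the call, 18 gained it and 11 reversed. The minimum fold gave 104 of the lost calls, and the turned sign, which is another quantity, gave 7 of the reversals. Leaving out a library cannot move a difference between groups it is not in. The tally is therefore a count of settings and not a measure of stability. Quantile normalization moved the medians of the 35 genes to -0.194 in males, 0.110 under the female labels, -0.318 for the difference and -0.228 between floxed groups. It left 26 genes called higher and 1 lower under the female labels, where the main fit called 31 and 2. It also turned Acaa2 between cardioGRKO groups to 0.062 (main value -0.003). A minimum fold of 1.2 left 184 genes called in males (fatty acid genes: 6 lower, 1 higher), 93 under the female labels (0 and 1), 420 for the difference, 386 between floxed groups (17 lower) and 117 between cardioGRKO groups (0 lower, 4 higher). Scaling to cardiomyocyte markers, chosen after seeing the data, called 11322 genes in males, 9438 for the difference and 10149 between floxed groups, and gave medians of -0.147, -0.283, -0.244 and, between cardioGRKO groups, 0.072, with 2 called higher for the difference and 4 lower between cardioGRKO groups. It turned Cpt1b to 0.081 and Acot13 to 0.002 in males and Acot13 to 0.001 between floxed groups. Turning the sign of the female change, also chosen after seeing the data, left 18 genes called lower and 3 higher for the difference, with a median of -0.095, and turned Slc27a1 to 0.039, Cpt1b to -0.125, Acacb to 0.026, Hadha to 0.153, Hadhb to 0.066, Acot13 to 0.001 and Pdk4 to 0.587. The cause of these changes was not tested, apart from the turned sign. Median centring moved the male calls over all genes from 1879 higher and 2153 lower to 1607 and 2591, and the floxed ones from 3162 and 3340 to 2622 and 3874. The scaling to cardiomyocyte markers made the male split 10751 and 571. Without libraries 1 and 2 labelled female floxed, 2734 genes were called under the female labels. Leaving out 1 library at a time gave male medians of -0.263 to -0.232 (the latter without male cardioGRKO 2) and 1 to 2 genes called lower under the female labels. With the replicate block, 173 of 175 gene results kept their call, and Angptl4 (0.094, adjusted p = 0.0503) and Eci2 (0.093, adjusted p = 0.0517) lost it under the female labels. Sequencing depth is unknown, so what it limits cannot be given.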
